A study of Mus musculus with 6 samples.

Results

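The genes described here copy DNA in S phase. They are 42 genes of replication licensing, DNA synthesis, nucleotide supply, chromatin copying and E2F control, out of 55631 gene IDs in a table of E14.5 mouse palatal shelves. They were picked by gene symbol and not by a rule on their values, but with earlier results of these data known. Each symbol matched 1 Ensembl ID. RNA was measured in 3 control and 3 KO libraries. The control embryos carried p130Casfl/fl, loxP-flanked alleles of the gene for the adhesion adaptor p130Cas, and their titles call them WT. The KO embryos carried the same alleles together with CAG-Cre (p130Casfl/fl; CAG-Cre). CAG is a promoter that is active in most cell types, so the labels do not limit Cre to the palate, and no library carried Cre without the loxP alleles. The title of the series speaks of a poorer expansion of the palatal mesenchyme and a cleft palate after loss of p130Cas, which is the question behind a look at replication genes.

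DNA is licensed for copying in G1, when Cdc6 and Cdt1 load the ring of Mcm2 to Mcm7 onto origins. At the start of S phase Cdc45 and the GINS complex join the ring and turn it into the working helicase, and polymerases with the sliding clamp Pcna then copy the strands. E2F transcription factors, released from Rb by cyclin-dependent kinases, switch on most of these genes together, and their mRNA is widely read as a mark of cells in or near S phase. Palatal shelves grow by division of their mesenchyme before and while they lift and meet.

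The values are FPKM, fragments scaled to gene length and library size, and they summed to between 384979 and 424993 per library over all genes. The number of reads is unknown. All 10 palatal mesenchyme markers looked at (Osr1, Osr2, Shox2, Tbx22, Meox2, Msx1, Pax9, Prrx1, Twist1 and Pdgfra) were above 0 in all libraries. The deleted gene, Bcar1, was at 1.80, 1.97 and 2.09 FPKM in control shelves and at 1.69, 1.69 and 1.31 FPKM in KO shelves, a weak check, since FPKM per gene also counts reads from any exon that Cre leaves in place (limma, adjusted p = 1.00). Libraries were correlated across genes between 0.982 and 0.993. Nothing in the labels ties the libraries to separate litters, and the p-values rest on the spread between these samples alone, which may be partly technical. KO replicate 2 alone had Xist (61.0 FPKM) and lacked Ddx3y, so it came from another embryo or pool than the rest. For the other libraries this is not known. In bulk tissue, fewer cells in S phase and less RNA per cell cannot be told apart.

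The promoters of the genes were searched for E2F sites. RefSeq windows of 300 bases (build GRCm38.p6, from 250 before to 50 after the start of transcription) matched 32 of the 42 genes by symbol. Atad2, Ccne2, Dscc1, Exo1, Gins2, Gmnn, Mcm4, Rfc2, Tipin and Usp1 had no entry. The letters searched were TTTCCCGC, TTTCGCGC, TTTGCCGC and TTTGGCGC on both strands. They were found for 14 of the 32 genes (43.8%), beside 704 of 27025 genes in the whole table (2.60%). Of the other replication genes described below, 23 of 89 with a window held a match (25.8%). Subunits of the Mcm2 to Mcm7 ring held 9 of the 19 matches, and 5 of its windows are printed here, with E2F matches in capitals, because one complex shows windows with 3, 2 and 0 matches.
Mcm3, chr1:20820263-20820562, minus strand: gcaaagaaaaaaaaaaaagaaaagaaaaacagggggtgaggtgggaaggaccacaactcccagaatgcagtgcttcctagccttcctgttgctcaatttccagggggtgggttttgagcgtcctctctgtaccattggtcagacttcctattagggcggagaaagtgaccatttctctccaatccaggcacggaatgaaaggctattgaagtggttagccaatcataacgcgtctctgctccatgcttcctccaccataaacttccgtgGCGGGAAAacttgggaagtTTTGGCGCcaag
Mcm5, chr8:75109259-75109558, plus strand: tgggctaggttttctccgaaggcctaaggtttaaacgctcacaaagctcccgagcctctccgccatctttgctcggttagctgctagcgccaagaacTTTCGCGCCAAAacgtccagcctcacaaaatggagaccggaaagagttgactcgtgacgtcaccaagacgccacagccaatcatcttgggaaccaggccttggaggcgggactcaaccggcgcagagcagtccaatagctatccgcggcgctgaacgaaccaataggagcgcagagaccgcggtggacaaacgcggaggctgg
Mcm6, chr1:128359656-128359955, minus strand: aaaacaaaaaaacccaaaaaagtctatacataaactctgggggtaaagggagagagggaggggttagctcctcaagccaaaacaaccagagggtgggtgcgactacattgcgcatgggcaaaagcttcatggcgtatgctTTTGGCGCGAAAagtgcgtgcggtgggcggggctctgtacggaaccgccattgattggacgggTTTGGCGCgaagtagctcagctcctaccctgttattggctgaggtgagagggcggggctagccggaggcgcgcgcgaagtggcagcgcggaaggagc
Mcm7, chr5:138171834-138172133, minus strand: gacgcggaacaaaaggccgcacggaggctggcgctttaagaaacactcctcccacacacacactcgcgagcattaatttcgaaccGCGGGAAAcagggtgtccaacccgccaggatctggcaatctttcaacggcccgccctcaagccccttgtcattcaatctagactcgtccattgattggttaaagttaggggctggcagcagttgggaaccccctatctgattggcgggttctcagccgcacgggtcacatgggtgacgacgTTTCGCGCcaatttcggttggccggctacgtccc
Mcm2, chr6:88898731-88899030, minus strand: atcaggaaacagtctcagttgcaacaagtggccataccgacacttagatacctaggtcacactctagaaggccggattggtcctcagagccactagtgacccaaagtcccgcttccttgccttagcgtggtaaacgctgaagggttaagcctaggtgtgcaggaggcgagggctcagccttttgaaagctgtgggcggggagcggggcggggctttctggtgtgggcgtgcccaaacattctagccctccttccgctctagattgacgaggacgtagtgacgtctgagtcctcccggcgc

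In Mcm5, and in the upstream pair of Mcm6, the capitals are matches on both strands that overlap each other. Mcm3, Mcm5, Mcm6 and Mcm7 were the 4 genes with at least 2 matches (12.5%), beside 2.25% of the other replication genes and 0.107% of all genes. Mcm2 had none, which says only that these letters are not in this window. Over all 32 genes the matches lay between positions -185 and 38 relative to the start, with a median of -62, and 11 were between -100 and 50. By role, 6 of 9 licensing and helicase genes, 3 of 5 synthesis genes, 4 of 8 chromatin genes, 1 of 4 fork genes and 0 of 3 nucleotide genes held a match. None was found for E2f1, E2f8 or Ccne1. The windows follow RefSeq starts. For 26 of the 32 genes the RefSeq start was within 100 bases of the GENCODE gene start, but those of E2f1, Mcm7 and Cdc6 lay 466, 539 and 350 bases inside the GENCODE gene. The matches of Mcm7 and Cdc6 are in these windows, and those of Uhrf1 and Lig1 are in windows of a second start, 992 and 1543 bases inside.

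**Figure D1:**
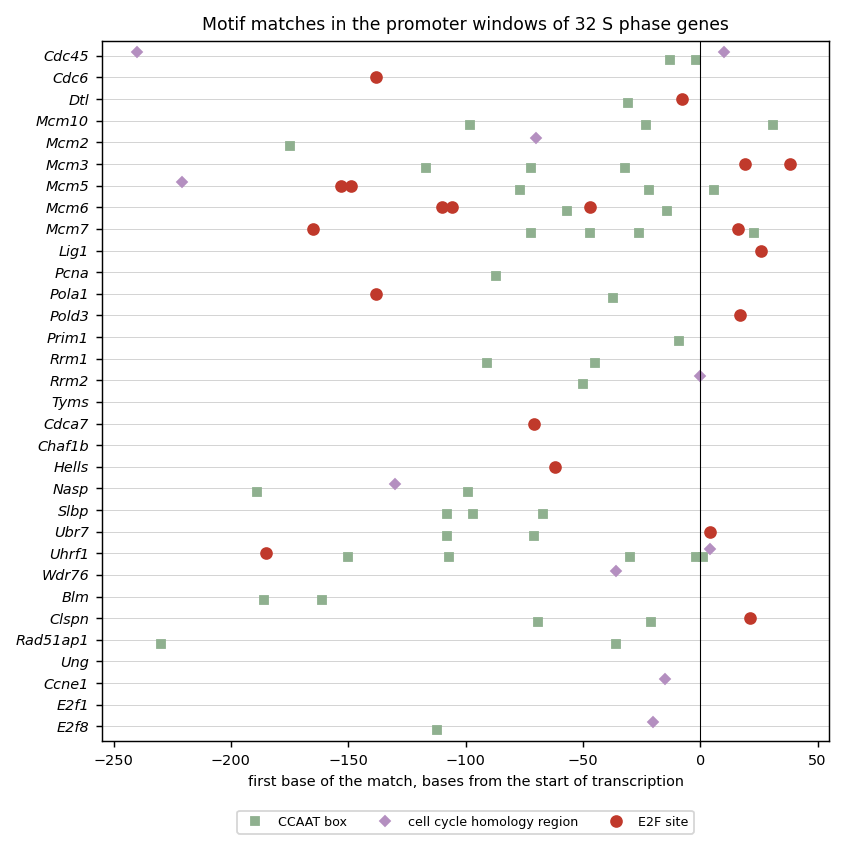
Positions of motif matches in the promoter windows of 32 S phase genes, as the first base of each match relative to the start of transcription, with all windows of a gene on 1 row. E2F sites (circles) stand in 14 rows and repeat in the rows of Mcm3, Mcm5, Mcm6 and Mcm7, while CCAAT boxes (squares) stand in 21 rows and cell cycle homology regions (diamonds) in 9.

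Genes of the next stage of the cycle had another makeup. The cell cycle homology region, a motif of genes that peak in G2 and mitosis, was searched as TTTGAA or TTTAAA. It was found for 35 of 44 genes of a G2/M and mitosis list (79.5%), for 9 of the 32 S phase genes (28.1%) and for 30.6% of all genes. E2F sites were found for 1 of the 44 G2/M genes (2.27%). The CCAAT box, bound by NF-Y, was common to both, at 65.6% of S phase genes and 77.3% of G2/M genes, beside 41.1% of all genes. These shares are descriptions of letters and not of binding, and both lists hold genes known for their phase.

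The replication program was expressed in both groups, with 33 of 42 members above the level of the median tested gene. No member passed the test between control and KO shelves. All 42 genes passed the filter on low values (6-library mean of 1 FPKM or more) and were tested. In limma, 0 were higher and 0 were lower at an adjusted p under 0.05, where 0.326% of the 14714 tested genes were higher and 0.0068% were lower. At an unadjusted p under 0.05, 0 members were higher and 1, E2f1, was lower, beside 2.09% and 1.92% of all tested genes. With library weights 5 members were lower at that level (Prim1, Rfc2, Dscc1, Usp1 and E2f1), and without KO replicate 3 there were 2 (Pcna and E2f1). The groups did not overlap for 1 member that was higher in KO, Mcm3, and 1 that was lower, E2f1, beside 3.27% and 5.79% of all tested genes. The median log2 fold change of FPKM + 1, KO minus control, was -0.0093 over the members and -0.021 over all tested genes, and 14 members lay above 0. That direction is not a result, because with quantile normalization, median-of-ratios scaling or TPM rescaling 25, 24 and 27 of the 42 lay above 0.

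The fold changes were small as well as uncalled, and the data bound them closely. Of the 42 members, 38 had an absolute log2 fold change under 0.1, beside 69.3% of all tested genes. KO means lay between 0.869 and 1.09 times the control means. The median standard error was 0.081, against 0.099 over all tested genes, and the median coefficient of variation over the 3 control libraries was 5.18%, against 7.98%. For 40 of 42 members the 95% interval of the fold change, unadjusted for the number of genes, lay between a 25% fall and a 1.33-fold rise of FPKM + 1. For all tested genes the share was 77.0%. It was 89.2% for the other replication genes described below and 90% for the G2/M genes, with median standard errors of 0.089 and 0.082. Narrow intervals are therefore not particular to the members. The exceptions were Dscc1, whose interval reached down to -0.42, and Atad2, whose interval reached up to 0.53 on the log2 scale. With 3 libraries a group, these intervals do not give the smallest change that the adjusted test could call, which was not tested. The interval of E2f1, from -0.34 to -0.041 on the log2 scale, left out 0, but E2f1 did not pass the adjusted threshold.

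**Figure D2:**
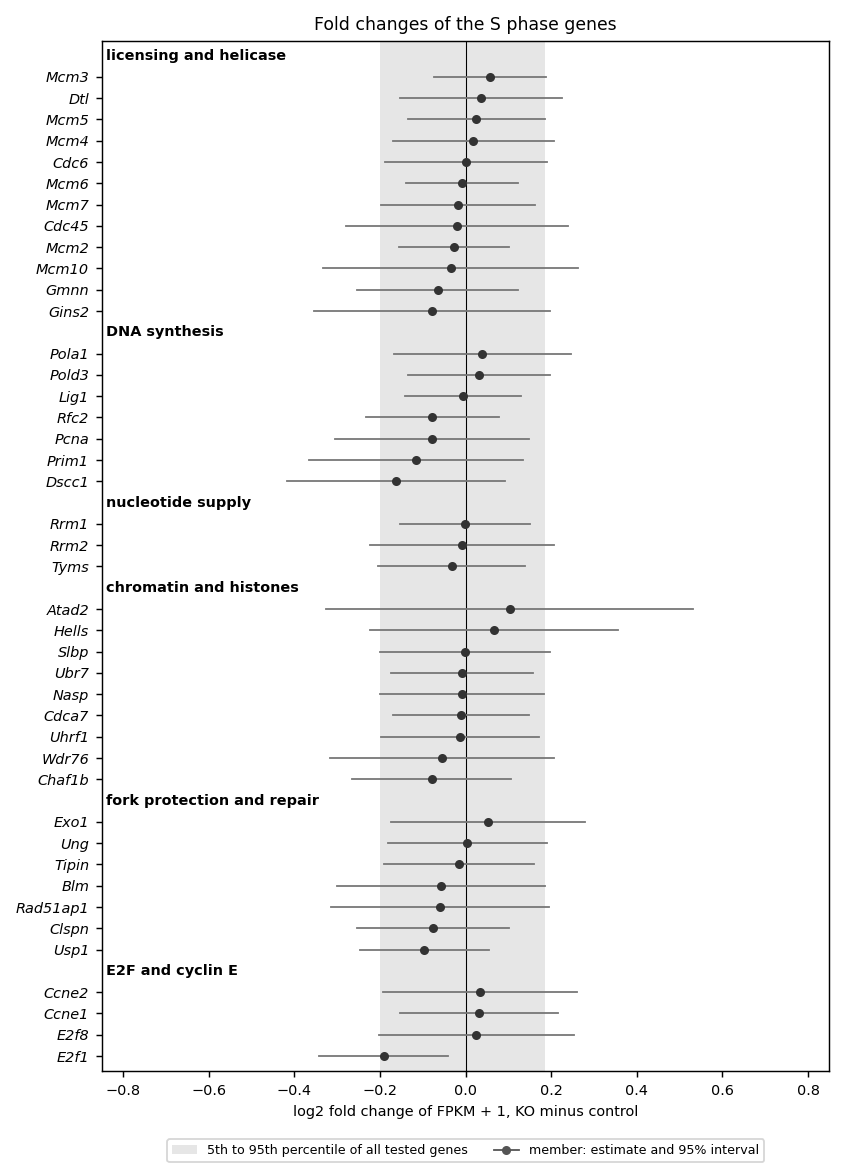
Log2 fold change of FPKM + 1 (KO minus control) of each S phase gene, by role, with its 95% interval as a line. The shaded band holds the middle of all tested genes, from their 5th to their 95th percentile (-0.20 to 0.19), and all 42 points lie within it. Apart from that of E2f1, the intervals cross 0.

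Levels spanned a wide range, and as FPKM is scaled to length they can be compared between genes. Pcna, the sliding clamp that tethers polymerases to DNA, was highest with a mean of 92.1 FPKM over the 6 libraries, above 96.2% of tested genes. Nasp, a chaperone that keeps a store of histones, followed at 86.4 FPKM. The lowest were Cdc6 at 5.01, Wdr76 at 4.28 and Exo1, a nuclease of mismatch repair, at 4.23 FPKM. Between them, 31 of 42 members stood at 10 FPKM or more, and the median member was at 19.8 FPKM, where the median tested gene was at 9.25 FPKM.

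**Figure D3:**
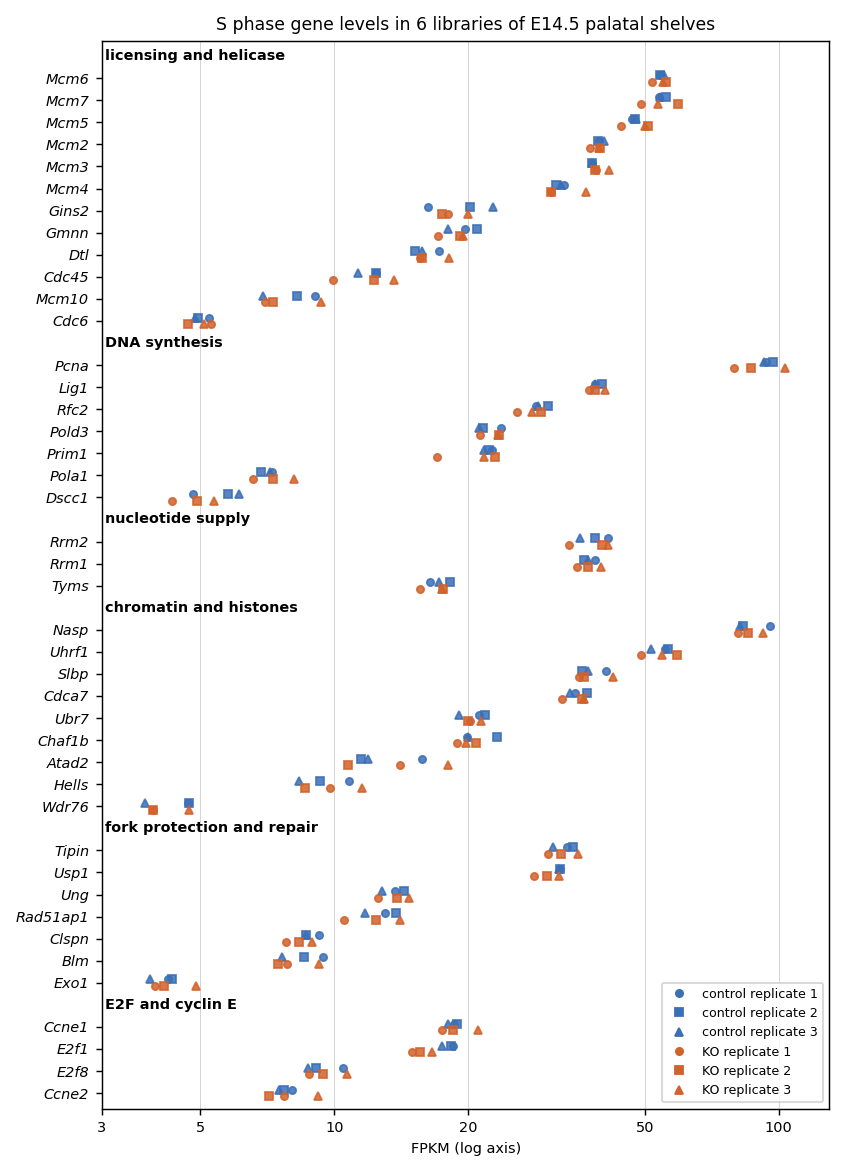
FPKM of the 42 S phase genes on a log axis in each library, grouped by role and ordered by mean level, with control libraries in blue, KO libraries in orange and 1 marker shape for each replicate number. Levels run from 3.74 to 103 FPKM, and blue and orange points overlap in all rows except those of Mcm3 and E2f1. KO replicate 1 (orange circles) is the lowest point in most rows.

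The licensing and helicase genes, 12 in number, kept similar levels in both groups, with a median log2 fold change of -0.013. Of the 6 ring subunits, Mcm6 and Mcm7 were most abundant and Mcm4 least, in all libraries. The highest subunit stood at 1.64, 1.76 and 1.71 times the lowest in control and at 1.69, 1.93 and 1.49 times in KO libraries. Summed over the ring, FPKM was 265, 266 and 268 in control and 252, 275 and 276 in KO libraries, so that KO replicate 1 lay below the controls and the others above.

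Mcm3 (ENSMUSG00000041859, chromosome 1, 20802968 to 20820312, minus strand of GRCm38) was at 38.0, 38.1 and 38.0 FPKM in control shelves and 38.9, 38.5 and 41.4 FPKM in KO shelves. The groups did not overlap, but the controls were almost identical and 2 KO libraries lay within 1 FPKM of them. Its log2 fold change was 0.056 ± 0.057 (SE; limma, adjusted p = 1.00; 95% interval from -0.075 to 0.19). Mcm2 stood at 39.4, 39.1 and 40.5 FPKM in control shelves and 37.6, 39.6 and 39.5 FPKM in KO shelves, and Mcm5 at 46.7, 47.5 and 47.7 and at 44.1, 50.7 and 49.96 FPKM. Both overlapped between groups.

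Helicase partners were scarcer than the ring. Cdc45, which joins the ring to start unwinding, was at 12.0 ± 0.645 FPKM in control shelves and 12.0 ± 1.87 FPKM in KO shelves (n = 3 each, ± SD), between 0.236 and 0.296 times the mean ring subunit. Mcm10, which helps the helicase to fire, was at 8.07 ± 1.08 and 7.87 ± 1.27 FPKM. Gins2, a GINS subunit, was at 16.3, 20.2 and 22.8 FPKM in control shelves and 18.04, 17.5 and 20.02 FPKM in KO shelves. Its value is uncertain, since 67.3% of its exon bases are shared with exons of Gse1 on the other strand and the strand setting is not given in the sources used here.

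Regulators of licensing did not separate the groups either. Geminin, the product of Gmnn (ENSMUSG00000006715, chromosome 13, 24751845 to 24761923, minus strand), binds Cdt1 and blocks licensing once S phase has begun. It was at 19.7, 20.9 and 17.99 FPKM in control shelves and 17.1, 19.2 and 19.5 FPKM in KO shelves, which gave -0.065 ± 0.081 as log2 fold change (SE; limma, adjusted p = 1.00). Dtl, which marks Cdt1 for destruction at Pcna on DNA, was at 16.0 ± 1.04 and 16.5 ± 1.39 FPKM. Cdc6, the loader of the ring, was at 5.01 ± 0.2003 and 5.02 ± 0.307 FPKM.

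Among the 7 synthesis genes the median log2 fold change was -0.078, the lowest of the 6 role groups. Pcna stood at 93.6, 96.8 and 92.6 FPKM in control shelves and 79.1, 86.8 and 103 FPKM in KO shelves, so the KO libraries lay on both sides of a narrow control range. Prim1, the catalytic subunit of primase, which lays down RNA primers, showed the same low library, at 22.6, 22.3 and 21.7 FPKM in control shelves and 17.0, 23.1 and 21.7 FPKM in KO shelves. Neither passed (limma, adjusted p = 1.00). Of reads like those of Pcna, some could come from its copy Pcna-ps2, which was itself at 1.44 FPKM in control libraries.

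Dscc1, part of the loader that puts Pcna on for sister chromatid cohesion (ENSMUSG00000022422, chromosome 15, 55076099 to 55090491, minus strand), had the lowest fold change of the synthesis genes. It was at 4.82, 5.78 and 6.10 FPKM in control shelves and 4.32, 4.90 and 5.36 FPKM in KO shelves, which gave -0.16 ± 0.11 as log2 fold change (SE; limma, adjusted p = 1.00). The groups overlapped through control replicate 1. Rfc2, a subunit of the main clamp loader (ENSMUSG00000023104, chromosome 5, 134581366 to 134601805, plus strand), was at 28.4, 30.3 and 28.8 FPKM in control shelves and 25.7, 29.1 and 27.9 FPKM in KO shelves. Its log2 fold change was -0.078 ± 0.067 (SE; limma, adjusted p = 1.00), and 15.1% of its exon bases are shared with Lat2 on the other strand.

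The polymerase subunits and the ligase were level. Pola1, the catalytic subunit of polymerase alpha and the only member on chromosome X, was at 7.08 ± 0.216 FPKM in control shelves and 7.32 ± 0.778 FPKM in KO shelves. KO replicate 2, the one library with Xist and without Ddx3y, was at 7.29 FPKM, between the other KO libraries at 6.55 and 8.11 FPKM. Pold3, a subunit of polymerase delta, was at 22.2 ± 1.35 and 22.7 ± 1.24 FPKM, and Lig1, which seals the fragments of the lagging strand, at 39.0 ± 0.843 and 38.9 ± 1.63 FPKM.

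The 3 nucleotide supply genes were nearly equal between groups, with fold changes from -0.032 to -0.0009. Ribonucleotide reductase makes deoxyribonucleotides from a large subunit, Rrm1, and a small one, Rrm2. Rrm2 (ENSMUSG00000020649, chromosome 12, 24708241 to 24714146, plus strand) was at 41.3, 38.7 and 35.7 FPKM in control shelves and 33.8, 40.0 and 41.4 FPKM in KO shelves, which gave -0.0080 ± 0.092 as log2 fold change (SE; limma, adjusted p = 1.00). Rrm1 was at 37.4 ± 1.08 and 37.4 ± 2.31 FPKM, and the ratio of Rrm1 to Rrm2 lay between 0.931 and 1.04 in all 6 libraries. Tyms, which makes thymidylate (ENSMUSG00000025747, chromosome 5, 30058202 to 30073617, minus strand), was at 16.4, 18.2 and 17.2 FPKM in control shelves and 15.6, 17.6 and 17.4 FPKM in KO shelves (log2 fold change -0.032 ± 0.074 SE; limma, adjusted p = 1.00).

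Genes that copy chromatin along with DNA, 9 in all, had a median log2 fold change of -0.0087. Chaf1b, a subunit of the factor that sets histones on new DNA (ENSMUSG00000022945, chromosome 16, 93883901 to 93906115, plus strand), was at 19.8, 23.3 and 20.04 FPKM in control shelves and 18.9, 20.9 and 19.8 FPKM in KO shelves. The log2 fold change came to -0.080 ± 0.080 (SE; limma, adjusted p = 1.00). Uhrf1, which brings the maintenance methyltransferase to new DNA, was at 54.5 ± 2.45 and 54.1 ± 4.97 FPKM. Slbp, which binds the stem-loop of histone mRNAs, was at 38.1 ± 2.48 and 38.1 ± 3.77 FPKM, and Nasp at 86.7 ± 7.61 and 86.1 ± 5.58 FPKM.

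Atad2 was the most variable member. This chromatin ATPase (ENSMUSG00000022360, chromosome 15, 58094044 to 58135082, minus strand) was at 15.8, 11.5 and 11.9 FPKM in control shelves and 14.03, 10.7 and 18.02 FPKM in KO shelves. The log2 fold change, 0.10 ± 0.18 (SE; limma, adjusted p = 1.00), turned to -0.070 without KO replicate 3. Hells, a remodeller needed for DNA methylation, was at 9.47 ± 1.25 and 9.98 ± 1.49 FPKM, and its partner Cdca7 at 35.3 ± 1.55 and 35.0 ± 2.17 FPKM. Ubr7 was at 20.7 ± 1.45 and 20.5 ± 0.791 FPKM and Wdr76 at 4.38 ± 0.555 and 4.18 ± 0.471 FPKM.

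For the 7 fork protection and repair genes the median log2 fold change was -0.058. Usp1, which removes ubiquitin from Pcna and from Fancd2 (ENSMUSG00000028560, chromosome 4, 98923810 to 98935543, plus strand), was at 32.3, 32.3 and 31.98 FPKM in control shelves and 28.1, 30.0 and 32.1 FPKM in KO shelves, which gave -0.096 ± 0.065 as log2 fold change (SE; limma, adjusted p = 1.00). Only KO replicate 3 reached the control range. Clspn, which passes the stress signal at a stalled fork to Chek1 (ENSMUSG00000042489, chromosome 4, 126556935 to 126593903, plus strand), was at 9.26, 8.65 and 8.62 FPKM in control shelves and 7.80, 8.31 and 8.91 FPKM in KO shelves. The difference, as log2 fold change, was -0.077 ± 0.077 (SE; limma, adjusted p = 1.00).

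The other fork genes overlapped between groups. Tipin, a fork stabiliser, was at 33.0 ± 1.67 FPKM in control shelves and 32.6 ± 2.59 FPKM in KO shelves, and Blm, a helicase that undoes crossed strands, at 8.54 ± 0.916 and 8.17 ± 0.922 FPKM. Rad51ap1, a DNA repair factor, was at 12.8 ± 1.02 and 12.3 ± 1.77 FPKM. Ung, which removes uracil from DNA, was at 13.6 ± 0.751 and 13.7 ± 1.10 FPKM, and Exo1 at 4.13 ± 0.246 and 4.33 ± 0.490 FPKM.

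The E2F and cyclin E genes held the member with the smallest p. E2f1 (ENSMUSG00000027490, chromosome 2, 154559407 to 154569892, minus strand), the activator that drives entry into S phase, was at 18.5, 18.3 and 17.5 FPKM in control shelves and 15.0, 15.6 and 16.6 FPKM in KO shelves. The groups did not overlap, with KO at 0.869 times the control mean. The log2 fold change was -0.19 ± 0.065 (SE; 95% interval from -0.34 to -0.041), with an unadjusted p of 0.0193 in limma that did not pass over all genes (adjusted p = 1.00). It ran from -0.23 to -0.16 over all alternatives and did not pass in any, with adjusted p from 0.243 to 1.00. The unadjusted p itself was no longer under 0.05 with TPM rescaling or without control replicate 1, control replicate 2 or KO replicate 1. No member passed, known targets of E2f1 such as Mcm5, Mcm6, Cdc6 and Ccne1 included, so this says nothing particular about its targets. Targets of E2f1 were not examined as a set.

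The remaining genes of that group stood level. Cyclin E, which activates Cdk2 at the G1 to S transition, comes from Ccne1 and Ccne2. Ccne1 (ENSMUSG00000002068, chromosome 7, 38097984 to 38107534, minus strand) was at 18.6, 18.9 and 18.02 FPKM in control shelves and 17.4, 18.5 and 21.1 FPKM in KO shelves, which gave 0.031 ± 0.079 as log2 fold change (SE; limma, adjusted p = 1.00). Ccne2 was at 7.75 ± 0.273 and 7.998 ± 1.06 FPKM, and Ccne1 stood at 2.26 to 2.60 times Ccne2 in all 6 libraries. E2f8, a repressor that shuts the program down late in S phase, was at 9.42 ± 0.911 and 9.61 ± 0.967 FPKM. For Ccne2 and E2f8, 17.4% and 11.2% of exon bases are shared with a gene on the other strand.

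Members moved together from library to library, and the KO libraries did not move the same way. Relative to the control mean of each gene, the median member stood at 0.027, 0.013 and -0.037 on the log2 scale in control replicates 1 to 3, and at -0.11, -0.015 and 0.087 in KO replicates 1 to 3. In KO replicate 1, 38 of 42 members were below the control mean, beside 8422 of all 14714 tested genes. That library was lowest for 27 members (64.3%), beside 20.7% of all tested genes. In KO replicate 3, 8 members were below the control mean, beside 7328 of all tested genes. That library was highest for 20 members (47.6%), beside 21.7% of all tested genes. The widest gap between libraries was thus inside the KO group. Without KO replicate 1 the members' median log2 fold change was 0.038 with 30 above 0, and without KO replicate 3 it was -0.057 with 2 above 0. No member passed in either case.

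**Figure D4:**
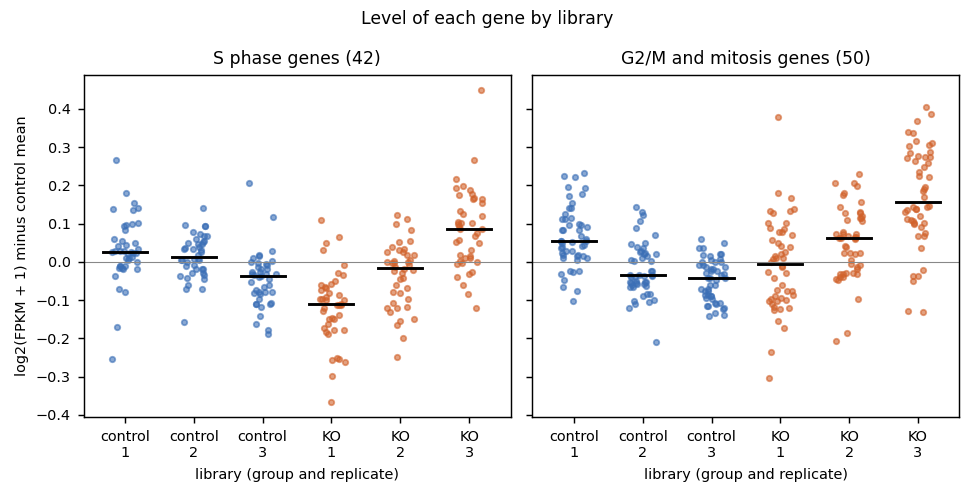
Level of each gene in each library as log2(FPKM + 1) minus its control mean, for the 42 S phase genes (left) and 50 G2/M and mitosis genes (right), with points for genes and bars for library medians. Among S phase genes KO replicate 1 is lowest (-0.11) and KO replicate 3 highest (0.087). In each KO library, and also in control replicate 1, the S phase bar lies below the G2/M bar.

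Markers of other cell types differed between the same KO libraries. Cartilage markers summed to 291, 252 and 538 FPKM in control shelves and 637, 135 and 121 FPKM in KO replicates 1 to 3, so that KO replicate 1 was highest and KO replicate 3 lowest, and all 10 were below 0 in log2 fold change. Palatal mesenchyme markers summed to 548, 528 and 482 FPKM in control shelves and 525, 489 and 609 FPKM in KO shelves, with 8 of 10 above 0. Leukocyte markers summed to between 80.5 and 101 FPKM in control shelves and between 114 and 159 FPKM in KO shelves. All 12 tested were above 0, 10 of them with no overlap between groups, beside 40.6% and 3.27% of all tested genes. Of 10 endothelial markers 0 were above 0, and 4 were lower in KO with no overlap, beside 5.79% of all tested genes. In limma, 10 leukocyte markers were higher and 3 endothelial markers lower at an unadjusted p under 0.05, beside 2.09% and 1.92% of all tested genes. Of both lists 0 passed the adjusted threshold. Skeletal muscle markers, of which 0 of 11 tested were above 0, summed to 373, 561 and 656 FPKM in control shelves and 374, 551 and 412 FPKM in KO shelves. Neuron markers summed to 85.2, 109 and 149 FPKM in control shelves and 124, 89.2 and 73.3 FPKM in KO shelves, with KO replicate 3 lowest. Epithelial markers summed to between 446 and 566 FPKM in control shelves and to 496, 683 and 384 FPKM in KO shelves, where all 10 were highest in KO replicate 2 and 8 were lowest in KO replicate 3. All 8 tested erythroid markers were highest in KO replicate 2. No marker of these lists was at 0 in any library, and their part in the spread of the S phase genes was not tested.

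G2/M and mitosis genes, which build and run the spindle, were set beside the S phase genes. Of 50 G2/M genes, all tested, 0 passed in limma, 2 were higher at an unadjusted p under 0.05 (2.09% of all tested genes), and the median log2 fold change was 0.070 with 42 of 50 above 0, beside 40.6% of all tested genes. The groups did not overlap for 5 of them, all higher in KO, which were Cdc20, Dlgap5, Gtse1, Psrc1 and Ttk (named after their values were seen), beside 3.27% of all tested genes. Psrc1, a spindle protein, was at 23.6, 26.4 and 22.2 FPKM in control shelves and 27.3, 28.3 and 32.1 FPKM in KO shelves (limma, adjusted p = 1.00). Dlgap5, which stabilises spindle microtubules, was at 10.2 ± 0.788 and 11.8 ± 0.638 FPKM. The library median of the S phase genes minus that of the G2/M genes was -0.028, 0.048 and 0.0038 in control and -0.11, -0.079 and -0.070 in KO libraries. The KO differences were all lower than the control ones, and this difference of 2 list medians was not tested. The G2/M median log2 fold change was 0.0073 without KO replicate 3, with 27 of 50 above 0.

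Other replication genes, 112 by a list written for this comparison, were examined in the same fit. Of 111 tested, 0 were higher and 0 were lower in limma, and 0 and 2 at an unadjusted p under 0.05, beside 2.09% and 1.92% of all tested genes, so the share was near that of all genes. Chtf8 was not matched, because its symbol belonged to more than 1 ID. The median log2 fold change was -0.014, and 50 lay above 0. In KO replicate 1, 88 of 111 were below the control mean, and in KO replicate 3, 23 were. Of all 14714 tested genes, 8422 and 7328 were. The order of these libraries was the same as for the members.

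By process, 6 of 20 genes of origin recognition and firing lay above 0, with Gins3 at 5.42 ± 0.196 FPKM in control shelves and 4.94 ± 0.475 FPKM in KO shelves, and Ticrr, which brings Cdc45 to origins, at 4.70 ± 0.358 and 5.07 ± 0.477 FPKM. Of 27 polymerase and fork genes 12 lay above 0, with Pola2, the second subunit of polymerase alpha, at 25.8 ± 0.463 and 24.1 ± 1.58 FPKM and Rpa3, part of the single-strand binding complex, at 22.5 ± 0.186 and 24.0 ± 1.30 FPKM. None of these passed in limma. Of 12 nucleotide genes 6 lay above 0. Samhd1, a dNTP hydrolase known as an interferon-stimulated gene, was at 17.5, 17.1 and 17.3 FPKM in control shelves and 17.3, 18.8 and 21.1 FPKM in KO shelves (limma, adjusted p = 1.00), and Shmt1 was at 11.1 ± 0.817 and 12.1 ± 1.35 FPKM.

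Chromatin assembly genes, with 6 of 10 above 0, included Tonsl, which reads new histones at forks, at 9.83 ± 0.277 FPKM in control shelves and 8.86 ± 0.709 FPKM in KO shelves, and Asf1b at 10.3 ± 0.413 and 10.9 ± 0.757 FPKM. Of 15 checkpoint and fork repair genes 5 lay above 0. Rad17, which loads the checkpoint clamp, was at 8.45 ± 0.334 and 7.60 ± 1.04 FPKM, and Rad1, a part of that clamp, at 8.81 ± 0.476 and 8.21 ± 0.230 FPKM. None of them passed (limma, adjusted p = 1.00).

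Of 27 genes of E2F, Rb and G1 control, 15 lay above 0, and both genes with an unadjusted p under 0.05 among the other replication genes were here, named by the rule of smallest p. Cdkn2c, an inhibitor of Cdk4 and Cdk6, was at 6.30, 7.26 and 7.41 FPKM in control shelves and 5.73, 5.66 and 6.07 FPKM in KO shelves. This gave -0.23 ± 0.085 as log2 fold change (SE; limma, unadjusted p = 0.0299, adjusted p = 1.00). Its groups did not overlap, and nor did those of Tonsl and Rad1. These are 3 of the 111 other replication genes, all lower in KO, beside 5.79% of all tested genes. For 0 of the 111 was KO higher with no overlap, beside 3.27%. Tfdp2, which encodes a DP partner of E2F proteins, was at 8.42, 13.4 and 12.6 FPKM in control shelves and 7.98, 8.31 and 8.54 FPKM in KO shelves. Its log2 fold change was -0.41 ± 0.15 (SE; limma, unadjusted p = 0.0308, adjusted p = 1.00), and control replicate 1 lay among the KO libraries.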

How the data were processed

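Per the labels' protocols, RNA was taken from palatal shelves with a ReliaPrep kit and sequenced. The authors deposited FPKM, in 1 table of 55631 gene IDs by 6 libraries. The submitters' processing notes name mm10 and DESeq2 version 1.5.2. For aligner, counter, annotation and strand: not given in the sources used here. Depth is unknown. Columns were matched to samples by library name and to groups by title.

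Symbols and coordinates came from GENCODE M21 (GRCm38) by ID, with 50824 IDs matched. Values were analysed as log2(FPKM + 1) in limma version 3.58.1 under R version 4.3.3, for genes averaging 1 FPKM or more, with genotype as the only term and the trend option of eBayes, two-sided, with Benjamini-Hochberg adjustment over all 14714 tested genes and a threshold of 0.05. The fold changes understate changes of low genes. The model was tested on simulated data. Members and lists were chosen with earlier results of these data known. Fold changes with tests are printed for the 2 members of smallest p per role, and values for the 2 genes of smallest p in each other list. No pair of libraries was identical. Alternatives were pseudocount 0.1, no filter, a filter at 5 FPKM, quantile, median-of-ratios and TPM scaling, eBayes without trend, library weights, a replicate block, embryo sex and each library left out.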

Additional observations from a re-analysis of the deposited data

How the results depend on the processing

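Under 16 alternatives, 0 S phase genes and 0 of the other replication genes were called in either direction, and the smallest adjusted p of a printed member was 0.243 (E2f1 with library weights, limma). The members' median log2 fold change ran from -0.060 with library weights to 0.038 without KO replicate 1, and was 0.0056 without control replicate 1. It was 0.016 with quantile normalization, 0.0069 with median-of-ratios scaling and 0.022 with TPM rescaling, shifts below the spread between libraries (SD 0.074). Of 192 recomputed fold changes of 12 members, 182 kept their direction and 10 turned, and the cause was not tested. The 182 include fold changes that could not turn. No filter, the filter at 5 FPKM, eBayes without trend and the replicate block leave a fold change as it was by construction. The sex term repeats the fold changes found without KO replicate 2, the only library with Xist. Rrm2 turned to 0.015 with quantile normalization, 0.0081 with median-of-ratios scaling and 0.023 with TPM rescaling, and ran from -0.063 to 0.079 as libraries were left out. Ccne1 turned to -0.020 with library weights and ran from -0.042 to 0.088 as libraries were left out. Tyms ran from -0.068 to 0.020 and Atad2, at 0.10 in the main analysis, from -0.070 to 0.28 in the same way.

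With the replicate number as a block, 0 members passed, while 41 genes in all were higher and 1 lower, against 48 and 1. The members' median of -0.0093 cannot change with this block, which is balanced over the groups. A filter at 5 FPKM kept 40 members and called 24 and 0 genes in all. Deviations of same-numbered libraries were correlated at 0.019, 0.31 and -0.24. These values cannot decide whether the samples share more than a number. Embryo sex was read from Xist and Ddx3y. With unknown depth no counting interval can be given.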

Other observations

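Several S phase genes share a start region with a neighbour on the other strand. In the GENCODE annotation 7 of the 42 members had a protein-coding start within 1000 bases that is transcribed the opposite way, with 9 such neighbours, of which 8 were tested and 0 passed (limma, 0 also at an unadjusted p under 0.05). Their log2 fold changes ran from -0.11 to 0.18 with a median of -0.0032. Mfap1a starts 58 bases from Wdr76 and was at 12.6 ± 0.481 FPKM in control shelves and 12.6 ± 0.975 FPKM in KO shelves (n = 3 each, ± SD). Ints7, a subunit of the Integrator complex, starts 92 bases from Dtl and was at 24.8 ± 2.24 and 24.9 ± 1.92 FPKM. Ufd1, which works with the segregase p97, starts 208 bases from the start of Cdc45 but within that gene. The genes share 209 exon bases, 5.96% of those of Cdc45, and the strand setting is not given. Ufd1 was at 29.8 ± 1.92 and 27.5 ± 0.987 FPKM. Prkdc, the DNA-dependent protein kinase, starts 466 bases from Mcm4 and was at 2.16 ± 0.307 and 2.22 ± 0.260 FPKM, far below the 32.3 ± 0.658 FPKM of Mcm4 in control libraries.

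The members lie on 17 chromosomes, with 6 of them on chromosome 7. The 14 members with an E2F match in their promoter window had a median log2 fold change of -0.0021, from -0.077 to 0.066, and the 18 without one of -0.030, from -0.19 to 0.031. Members without a window are left out, and the difference was not tested. The value of -0.19 is that of E2f1, whose RefSeq start lay 466 bases inside the GENCODE gene.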
